A study of Homo sapiens with 6 samples.

Results

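The genes of sterol and fatty acid synthesis, together with the SREBP regulators that control them, were followed in prostate cancer cells with and without knockdown of RB. They were chosen by name and number 31: 5 regulators, 7 genes of the mevalonate arm, 10 of the squalene and sterol arm, 1 sterol carrier and 8 of fatty acid synthesis and modification. The count table names its rows by Ensembl transcript ID, and 27 of the 31 genes matched a row through GENCODE release 29, out of 22279 IDs in the table. All 27 passed the filter on low counts and were among the 11712 genes tested. ACAT2, EBP, SC5D and ACACA were not analysed here.

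RNA was sequenced from 6 libraries of LNCaP, an established human prostate cancer cell line that depends on androgen. The 3 shRB libraries came from LNCaP cells carrying a hairpin against RB, the retinoblastoma protein, and the 3 shCON libraries from LNCaP cells carrying a control hairpin. Both groups were kept for 72 h in CDT, which the labels list as a treatment that arrests the cell cycle and the series describes as lacking hormone, so every library is from hormone-deprived cells. The comparison asks which transcripts differ on RB loss in that state. The labels give 1 hairpin name per group and do not say whether the lines were clones or the replicates separate cultures. RB loss therefore cannot be told apart from whatever else the RB hairpin or its cell population brought, and p-values measure the spread between these libraries, which may be technical.

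Sterols and fatty acids are both built from acetyl-CoA, the sterols through mevalonate, isoprenoids, squalene and lanosterol, and the fatty acids through malonyl-CoA, chain elongation and desaturation. Transcription of the enzymes is driven by the SREBP factors, which are made as membrane-bound precursors. SCAP carries them from the endoplasmic reticulum to the Golgi for cleavage, and INSIG proteins hold SCAP back when sterols are plentiful. In prostate cancer cells the same genes are also known to respond to androgen, and RB is known for restraining the E2F factors.

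RB1 mRNA (ENST00000267163, chromosome 13) lay between 52.7 and 56.6 CPM in the shCON libraries and between 3.82 and 5.83 CPM in the shRB libraries (log2 fold change −3.43, adjusted p = 2.4e-09). CPM is the read count scaled to the library's adjusted total, and by this measure every library matched its label. Total counts ranged from 6115310 to 20091488. All 10 luminal prostate markers had rows that passed the filter, with summed levels of 5231 to 5855 CPM. The basal markers summed to at most 0.85 CPM and the leukocyte markers to at most 0.65 CPM, with KRT5, PTPRC and CD3E at 0 in every library. The 7 stromal and endothelial markers with a row summed to 18.5 to 23.1 CPM in shCON and 13.6 to 17.5 CPM in shRB. Most of it was COL1A1 (means of 17.5 CPM in shCON and 13.5 CPM in shRB), followed by COL3A1 (2.32 and 1.57 CPM). COL1A2, PECAM1 and CDH5 were at 0. In bulk libraries, fewer cells of a kind and less RNA per cell cannot be told apart.

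One library stood apart within its group, and the synthesis genes showed it clearly. In shRB 2 the 13 genes with a transcript GC content under 50% lay at a median of −0.099 on the log2 scale from their group mean, and the 14 genes at or above 50% lay at 0.12. The corresponding medians were 0.12 and −0.072 in shRB 1, and −0.074 and 0.067 in shCON 2. Across the 27 genes the Spearman correlation of this deviation with GC content was −0.79, 0.90 and −0.51 in the shCON libraries by number, and −0.80, 0.88 and −0.60 in the shRB libraries. Over the 11674 tested genes with a GC value it was −0.51, 0.52 and −0.086 in shCON and −0.50, 0.69 and −0.54 in shRB. These are descriptions over genes that share a library. Calls that shRB 2 or the GC trend changed are given with and without that library, and after the GC trend of each library was removed. The trend removed was that of deviations from the mean over both groups. Its removal therefore also takes out a GC trend that differs between shRB and shCON.

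**Figure D1:**
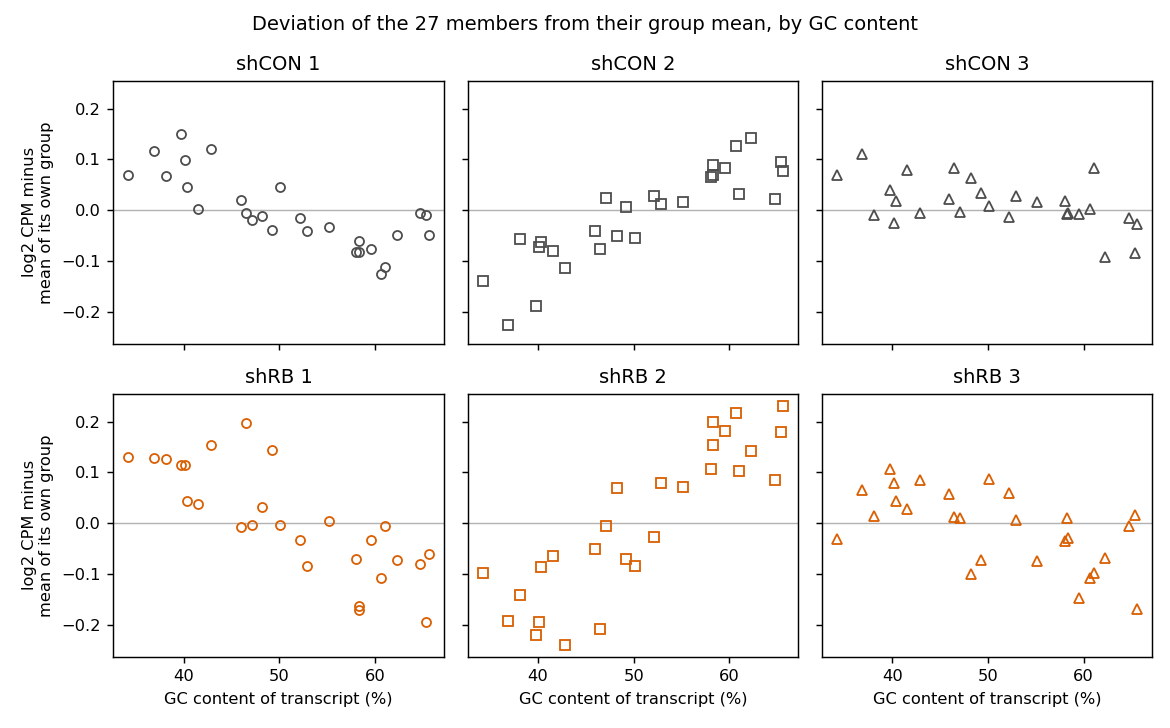
Deviation of each of the 27 genes from the mean of its own group (vertical axis, log2 CPM) against transcript GC content (horizontal axis, percent), 1 panel per library and 1 point per gene. The points slope upward in shCON 2 and shRB 2, with Spearman correlations of 0.90 and 0.88, and downward in the other 4 libraries.

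Of the 27 genes, 4 rose in shRB, 2 fell and 21 did not pass the test. FADS1 and FADS2, desaturases in the making of polyunsaturated fatty acids, rose by 51.4% and 46.0%. SREBF2, which encodes the SREBP that acts mainly on sterol genes, rose by 32.8%, and MVK, mevalonate kinase, by 22.7%. LSS, which makes the first sterol of the pathway, fell by 22.5%, and ELOVL5, an elongase of polyunsaturated chains, fell by 24.3%. The test was edgeR's quasi-likelihood test with Benjamini-Hochberg adjustment over all genes tested and a threshold of 0.05.

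By the same test 12.8% of the whole set of tested genes rose and 12.5% fell, against 14.8% and 7.41% of the synthesis genes, so the first share lay near the background and the second below it. The median log2 fold change (shRB over shCON) was 0.096 over the 27 genes and −0.0062 over all genes, with 19 of the 27 positive and 8 negative. Their median absolute log2 fold change was 0.14, against 0.19 over all genes, and the extremes were −0.40 and 0.60. The groups did not overlap for 9 genes with shRB above and 3 with shRB below. That separation held for 21% and 20.2% of all genes tested.

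**Figure D2:**
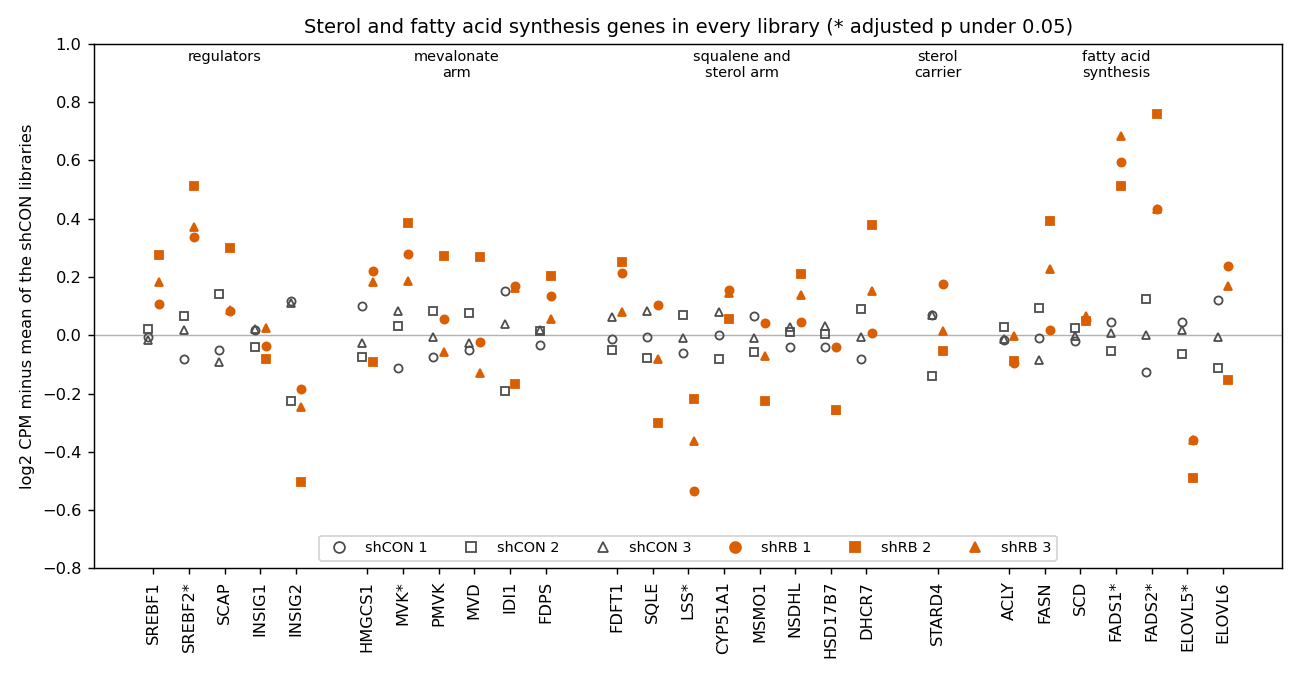
Level of each of the 27 genes in each library (vertical axis, log2 CPM minus the mean of the shCON libraries), grouped by role. Open grey symbols are shCON, filled orange symbols shRB, and the asterisk marks an adjusted p under 0.05. FADS1 and FADS2 stand highest, with every shRB library above every shCON library, and shRB 2 (orange squares) is the most distant shRB library for many genes.

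Summed over the 27 genes, the level was 7349, 7737 and 7432 CPM in shCON and 8196, 9247 and 8501 CPM in shRB, a difference of 15.2% with no overlap between groups. Without FADS1 and FADS2 the sums were 5933, 6091 and 5903 CPM in shCON and 6110.4, 6705 and 6400.1 CPM in shRB, a difference of 7.19%. The lowest shRB library then lay just above the highest shCON library. By role, the summed level differed by 18.2% for fatty acid synthesis, 14.6% for the regulators, 7.82% for the mevalonate arm and 4.60% for the squalene and sterol arm. These sums are weighted by the most abundant genes: FASN and FADS2 together differed by 30.2%.

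Levels were also divided by the length of the listed transcript. The counting rule is not given, so reads may have been counted over another length, and the order between genes is approximate. By this measure FADS2 stood highest in shCON at 379.6 CPM per kb. FASN followed at 185.5, the stearoyl-CoA desaturase SCD at 177.9 and ELOVL5 at 139.7. The regulator SREBF1 stood at 106.4 and SREBF2 at 55.8 CPM per kb. MVK, at 15.6, ELOVL6, at 14.5, and STARD4, at 4.44 CPM per kb, were the lowest of the 27. In shRB the level of FADS2 was 554.1 CPM per kb and that of FASN 216.0, so that the order of the leading pair was the same, while ELOVL5 was at 105.7. FADS1, the partner of FADS2 in the same pathway, was at 33.7 CPM per kb in shCON and 51.1 in shRB.

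Among the regulators, SREBF2 (ENST00000361204, chromosome 22) was the only one of 5 to pass the test. Its level was 275.9, 305.6 and 295.9 CPM in the 3 shCON libraries, in the order of their numbers, and 369.3, 417.4 and 378.1 CPM in the 3 shRB libraries, an order kept for all genes that follow. All shRB libraries were above all shCON libraries, with shRB 2 the highest. The means were 292.5 ± 15.1 and 388.3 ± 25.6 CPM (SD, n = 3 each), a log2 fold change of 0.41 ± 0.08 (SE; adjusted p = 0.0015). Without shRB 2 it was 0.36 (adjusted p = 5.5e-06). On chromosome 22, 76 of 313 tested genes were higher (24.3%), and of the 10 tested genes nearest SREBF2, 5 on each side, 4 were higher, with a median log2 fold change of 0.20. The part of this local pattern in the SREBF2 result was not tested.

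Of the genes with a promoter window, SREBF2 is also the only one whose window held the sterol regulatory element core, TCACNCCAC, through which SREBPs bind DNA. FASN, SQLE, FDFT1 and ACAT2 had no window and were not searched. The stretch below is shown because it carries that core and, downstream of it, an ATTGG, the reverse complement of the CCAAT box bound by NF-Y, a factor known to work with SREBPs. It runs from −160 to −60 relative to the RefSeq start on the plus strand (chr22:41832945-41833045, GRCh38.p14), with both matches in capitals, the core beginning at −133 and the ATTGG at −106. GENCODE places an exon of SREBF2-AS1, a noncoding gene on the opposite strand, over this stretch.
SREBF2: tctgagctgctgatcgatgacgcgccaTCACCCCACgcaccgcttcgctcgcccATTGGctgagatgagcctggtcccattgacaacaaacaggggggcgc

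SREBF1 (chromosome 17), which encodes the SREBP forms that act mainly on fatty acid genes, read 450.2, 459.2 and 447.5 CPM in shCON and 487.5, 547.0 and 513.5 CPM in shRB. The groups did not overlap, but the log2 fold change of 0.19 ± 0.07 (SE) missed the threshold (adjusted p = 0.064). Without shRB 2 it passed, at 0.15 (adjusted p = 0.046), and with the GC trend removed it passed at 0.16 (adjusted p = 0.028). The difference itself was thus much the same in the 3 fits, and the side of the threshold was not.

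The escort SCAP (chromosome 3) read 120.0, 137.1 and 116.5 CPM in shCON and 131.6, 152.9 and 132.0 CPM in shRB. The groups overlapped through shCON 2. The log2 fold change was 0.15 ± 0.09 (SE, adjusted p = 0.22), and 0.088 without shRB 2. On chromosome 3, 28.4% of tested genes were higher, with a median log2 fold change of 0.15. The part of this pattern in the SCAP value was not tested. INSIG1 (chromosome 7), itself a well known target of SREBPs, read 134.9, 129.3 and 135.1 CPM in shCON and 129.6, 125.7 and 135.5 CPM in shRB. Its groups overlapped almost entirely (log2 fold change −0.03 ± 0.07, SE; adjusted p = 0.79).
INSIG2 (chromosome 2), the second retention protein, read 76.6, 60.4 and 76.3 CPM in shCON and 62.2, 49.8 and 59.5 CPM in shRB. The lowest control, shCON 2, lay within the shRB range, and shRB 2 was the lowest of all. Its transcript has a GC content of 36.9%, the second lowest of the 27. The log2 fold change was −0.31 ± 0.11 (SE; adjusted p = 0.054), −0.22 without shRB 2 (adjusted p = 0.041), −0.41 without shCON 2 (adjusted p = 0.021) and −0.20 with the GC trend removed (adjusted p = 0.015).

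In the mevalonate arm, which runs from acetyl-CoA to the isoprenoids, 6 genes were tested and all had a positive log2 fold change, from 0.047 to 0.30 with a median of 0.10, but only MVK passed the test. MVK (ENST00000228510, chromosome 12), which phosphorylates mevalonate, read 28.1, 31.0 and 32.2 CPM in shCON and 36.9, 39.8 and 34.6 CPM in shRB. Every shRB library was above every shCON library, the nearest pair being shCON 3 and shRB 3. The means were 30.4 ± 2.12 and 37.1 ± 2.60 CPM (SD, n = 3 each; log2 fold change 0.30 ± 0.10, SE; adjusted p = 0.046). This call was the least stable of the 6: it was lost without any one of shCON 1 (0.23, adjusted p = 0.24), shCON 2 (0.32, adjusted p = 0.081), shCON 3 (0.34, adjusted p = 0.073), shRB 1 (0.30, adjusted p = 0.095) and shRB 3 (0.34, adjusted p = 0.051). It was also lost in DESeq2 (adjusted p = 0.083).

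The MVK window is 1 of 3 among the genes with a match to an E2F site, and the short stretch below is shown for it. It lies upstream of the RefSeq start on the plus strand (chr12:109573649-109573674, GRCh38.p14), within an exon of MMAB, the neighbour on the opposite strand. The capitals join a GC box, GGGCGG, at −136 and the E2F letters GCGGGAAA at −134, which overlap.
MVK: gaaggagcgGGGCGGGAAAacccgtg

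HMGCS1 (chromosome 5), the synthase that commits acetyl-CoA units to the pathway, read 102.3, 90.7 and 93.8 CPM in shCON and 111.2, 89.7 and 108.5 CPM in shRB. Of the shRB libraries, shRB 2 alone lay below the lowest control and the other two above the highest. The log2 fold change was 0.11 ± 0.09 (SE; adjusted p = 0.44) with all libraries, 0.20 without shRB 2 (adjusted p = 0.027) and 0.17 with the GC trend removed (adjusted p = 0.014). FDPS, farnesyl diphosphate synthase, had groups that did not overlap, with means of 137.9 ± 2.68 and 151.3 ± 7.72 CPM, but did not pass (0.13, adjusted p = 0.19).
PMVK, MVD and IDI1, the kinase, decarboxylase and isomerase between MVK and FDPS, had overlapping groups and log2 fold changes of 0.096, 0.047 and 0.055. Without shRB 2 these were 0.011, −0.066 and 0.16, none of them past the threshold. Over the 10 tested genes nearest each, the median log2 fold change was 0.29 for FDPS and 0.26 for PMVK. It was negative for HMGCS1, MVK, MVD and IDI1. The part of these local patterns in the values of this arm was not tested. An antisense gene, RUSC1-AS1, shares 41.0% of the FDPS transcript's exon bases, and AC114947.2 shares 20.1% of that of HMGCS1. By name, FDPS has 8 pseudogenes and, in the other arms, CYP51A1 has 3, HSD17B7 has 2, and SCD and FADS2 have 1 each. Whether the counting used strand is not given in the sources used here. Reads of such pairs cannot be told apart.

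In the squalene and sterol arm, 8 genes were tested, 4 with a positive and 4 with a negative log2 fold change (median 0.020), and only LSS passed the test. LSS (ENST00000397728, chromosome 21), lanosterol synthase, read 103.5, 113.4 and 107.5 CPM in shCON and 74.6, 92.9 and 84.1 CPM in shRB. Every shRB library was below every shCON library, with shRB 2 the nearest to the controls. The log2 fold change was −0.37 ± 0.09 (SE; adjusted p = 0.0087) and −0.44 without shRB 2 (adjusted p = 5.1e-06). The other 7 did not pass, with log2 fold changes up to 0.19.

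The fall of LSS went with that of its chromosome. On chromosome 21, 78 of 123 tested genes were lower in shRB (63.4%) and 0 were higher by edgeR, with a median log2 fold change of −0.38, against −0.37 for LSS itself. At an unadjusted p under 0.05, 93 were lower and again 0 higher, and DESeq2 and limma-voom called 67 and 78 lower and 0 higher. Of the 10 tested genes nearest LSS 5 were lower, with a median of −0.30. The export gene ABCG1 and the acyltransferase AGPAT3, on the same chromosome, also fell. The part of the chromosome-wide difference in the LSS result was not tested.

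**Figure D3:**
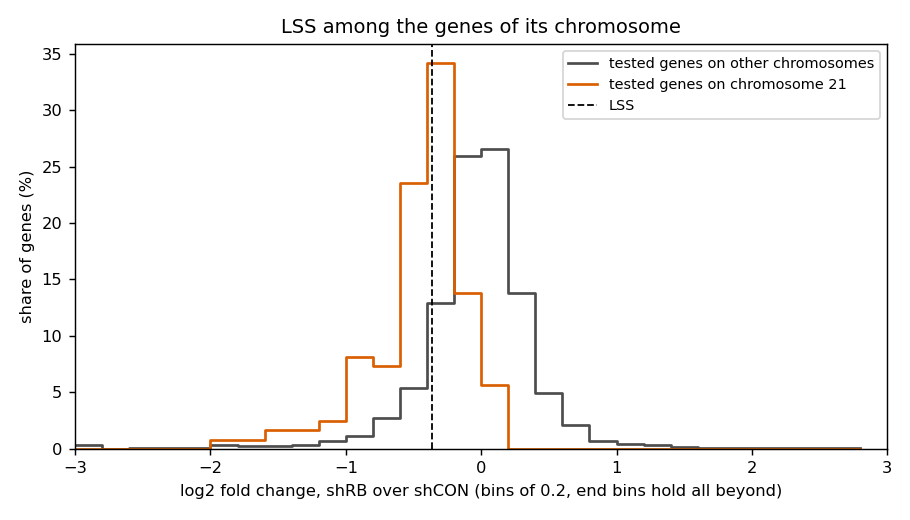
Distribution of the log2 fold change, shRB over shCON (horizontal axis, bins of 0.2), over the 123 tested genes on chromosome 21 (orange) and all tested genes on other chromosomes (grey), as a share of genes in percent (vertical axis). The dashed line marks LSS at −0.37, close to the chromosome's median of −0.38.

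The LSS promoter stretch is shown because it holds a CCAAT box, as does that of SREBF2, but no sterol regulatory element core. It lies on the minus strand from −200 to −100 (chr21:46228874-46228974, GRCh38.p14), with the ATTGG at −150 in capitals, upstream of the annotated exons of LSS.
LSS: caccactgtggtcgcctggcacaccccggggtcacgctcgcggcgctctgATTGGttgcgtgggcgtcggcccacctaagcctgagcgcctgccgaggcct

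FDFT1, squalene synthase, had means of 218.8 ± 8.86 and 248.4 ± 15.2 CPM with no overlap between groups and missed the threshold (0.18 ± 0.07, SE; adjusted p = 0.083). With the GC trend removed it passed, at 0.19 (adjusted p = 0.015). CYP51A1, the lanosterol demethylase, also passed then (0.17, adjusted p = 0.021), but not with all libraries (0.12, adjusted p = 0.26). Without shRB 2 neither FDFT1 (0.16, adjusted p = 0.054) nor CYP51A1 (0.16, adjusted p = 0.058) passed. NSDHL, a sterol dehydrogenase, did not overlap between groups (44.5 ± 1.11 and 48.8 ± 2.79 CPM; adjusted p = 0.29). DHCR7, which makes cholesterol from its last precursor in one branch, overlapped through shRB 1 (212.0 ± 12.6 and 241.2 ± 31.7 CPM; adjusted p = 0.16), and its log2 fold change of 0.19 was 0.090 without shRB 2.
SQLE, squalene epoxidase and a rate-limiting step of the arm, read 59.1 ± 3.32 and 55.7 ± 7.81 CPM, and MSMO1, which removes sterol methyl groups, 101.7 ± 4.46 and 96.1 ± 8.93 CPM. Both had overlapping groups (log2 fold changes of −0.080 and −0.082, and 0.027 and −0.0091 without shRB 2). HSD17B7, whose listed ID is a short transcript of 650 bases annotated for nonsense-mediated decay, lay at 11.8 ± 0.30 and 10.4 ± 0.93 CPM, with shRB just below shCON (adjusted p = 0.35). The sterol carrier STARD4 read 20.4 ± 1.68 and 21.1 ± 1.76 CPM (log2 fold change 0.046, and 0.10 without shRB 2; adjusted p = 0.80 with all libraries). Another gene model on the same strand covers 88.6% of the CYP51A1 transcript, so its reads could be split between the models.

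Of the 7 genes of fatty acid synthesis tested, 2 rose (28.6%, against 12.8% of all genes) and 1 fell (14.3%, against 12.5%). FADS1 (ENST00000350997, chromosome 11), the delta-5 desaturase, read 157.5, 147.0 and 153.6 CPM in shCON and 230.5, 217.7 and 245.4 CPM in shRB. The groups were far apart, with the lowest shRB library, shRB 2, well above the highest control. The means were 152.7 ± 5.33 and 231.2 ± 13.9 CPM (SD, n = 3 each; log2 fold change 0.60 ± 0.07, SE; adjusted p = 6.6e-05), and no other of the 27 genes had a larger fold change in either direction. Leaving out each library in turn gave 0.55 to 0.65.

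FADS2 (ENST00000278840, chromosome 11), the delta-6 desaturase, read 1259, 1499 and 1376 CPM in shCON and 1855, 2324 and 1856 CPM in shRB. Again the groups did not overlap, with shRB 2 far above the other two shRB libraries and shCON 2 the highest control. The log2 fold change was 0.55 ± 0.10 (SE; adjusted p = 0.0014), and 0.44 without shRB 2 (adjusted p = 1.4e-07). FADS1 and FADS2 are read in opposite directions with overlapping first parts, their RefSeq starts 599 or 800 bases apart depending on the FADS2 start. Their exons overlap on opposite strands over 3.14% of the FADS1 transcript and 4.08% of the FADS2 transcript. Of the 10 tested genes nearest FADS1, FADS2 among them, 4 were higher, with log2 fold changes of 0.010 to 0.71 and a median of 0.23. Of the 10 nearest FADS2, 5 were higher, with log2 fold changes of 0.13 to 0.71 and a median of 0.27. Over all of chromosome 11, 13.3% of tested genes were higher, close to the share over all genes. The part of the local pattern in the FADS1 and FADS2 results was not tested.

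The far upstream part of the FADS1 window is shown because it holds the only matches of that window, both to the GC box on the reverse strand, CCGCCC, in capitals. It runs from −250 to −200 on the minus strand (chr11:61817203-61817253, GRCh38.p14), with the matches at −248 and −205. It lies inside the FADS2 gene, past the FADS2 starts, since the transcription units overlap, and in no annotated exon. The FADS1 window held none of the other motifs searched.
FADS1: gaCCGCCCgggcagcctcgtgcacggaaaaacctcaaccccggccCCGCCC

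ELOVL5 (chromosome 6), which elongates the products of FADS2, moved the opposite way. It read 407.3, 377.8 and 400.0 CPM in shCON and 307.8, 281.2 and 307.8 CPM in shRB. Every shRB library was below every shCON library, and the 3 shRB libraries lay close together. The means were 395.0 ± 15.4 and 298.9 ± 15.4 CPM (SD, n = 3 each; log2 fold change −0.40 ± 0.07, SE; adjusted p = 0.0012). On chromosome 6, 16.5% of tested genes were lower, against 12.5% of all genes. Of the 10 nearest to ELOVL5, 3 were lower, with a median log2 fold change of −0.048. The part of this local pattern in the ELOVL5 result was not tested.

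Within the ELOVL5 window the CCAAT box occurs more than once on the reverse strand, and the surroundings of both ATTGG matches are shown for comparison, in capitals. They lie on the minus strand, with the matches at −122 (chr6:53349057-53349082) and −68 (chr6:53349005-53349030, GRCh38.p14), inside the first exon of an ELOVL5 transcript that GENCODE begins further upstream.
ELOVL5, upstream box: ttgtcccgcgATTGGctcccgggccg
ELOVL5, downstream box: cttcgggtcccgATTGGctggccgcg

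FASN (chromosome 17), the fatty acid synthase, read 1576, 1694 and 1497 CPM in shCON and 1606, 2084 and 1860 CPM in shRB. The lowest shRB library, shRB 1, lay within the control range, and shRB 2 was far above it. The log2 fold change was 0.22 ± 0.09 (SE) and did not pass (adjusted p = 0.11). It passed without shRB 1 (0.31, adjusted p = 0.033) and with the GC trend removed (0.18, adjusted p = 0.034), and was 0.13 without shRB 2 (adjusted p = 0.11).
SCD, the delta-9 desaturase, varied little: its means were 953.8 ± 14.4 and 991.3 ± 5.75 CPM, with shRB just above shCON (0.056, adjusted p = 0.58). ACLY, which supplies acetyl-CoA from citrate, read 441.8 ± 7.55 and 423.6 ± 15.4 CPM (adjusted p = 0.55). ELOVL6, which elongates saturated chains, read 44.9 ± 3.66 and 47.9 ± 6.73 CPM (log2 fold change 0.088, adjusted p = 0.61; 0.20 without shRB 2, adjusted p = 0.073). The groups overlapped for ACLY and ELOVL6.

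**Figure D4:**
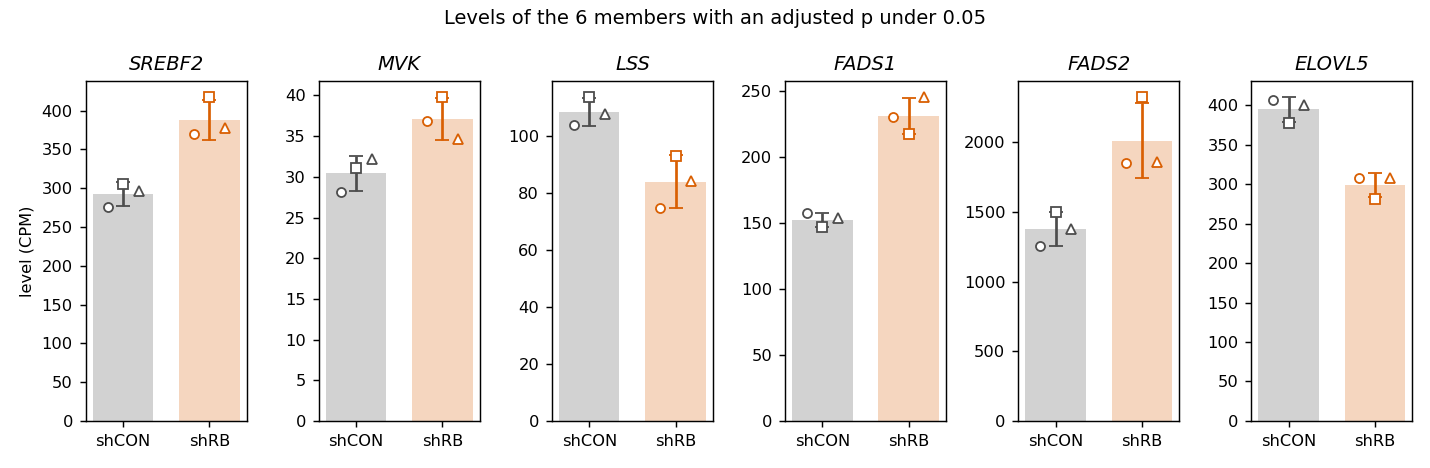
Level in CPM (vertical axis, from 0) of the 6 genes with an adjusted p under 0.05, in shCON (grey) and shRB (orange). Bars are means and error bars SD over 3 libraries, and circles, squares and triangles are replicates 1, 2 and 3. No gene shows an overlap between groups, and shRB 2 is the highest shRB library for SREBF2, MVK, LSS and FADS2 and the lowest for FADS1 and ELOVL5.

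Which of the genes passed depended on how shRB 2 and the GC trend were treated. Without shRB 2, 6 genes were higher and 3 lower, against 17.5% and 16.5% of all genes tested in that fit. HMGCS1, SREBF1 and INSIG2 joined the 6 called with all libraries, none of which was lost. With the GC trend of each library removed, 9 genes were higher and 3 lower, against 19.8% and 19.3% of all genes. The higher genes were then CYP51A1, FADS1, FADS2, FASN, FDFT1, HMGCS1, MVK, SREBF1 and SREBF2, and the lower genes ELOVL5, INSIG2 and LSS. FADS1, FADS2, SREBF2 and ELOVL5 kept their call in all 18 alternatives run, and LSS in the 17 that give it a value. Over the 27 genes the Spearman correlation of the log2 fold change with GC content was 0.55, and over the 11674 genes 0.15. The part of GC content in the differences between groups was not tested beyond these fits.

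**Figure D5:**
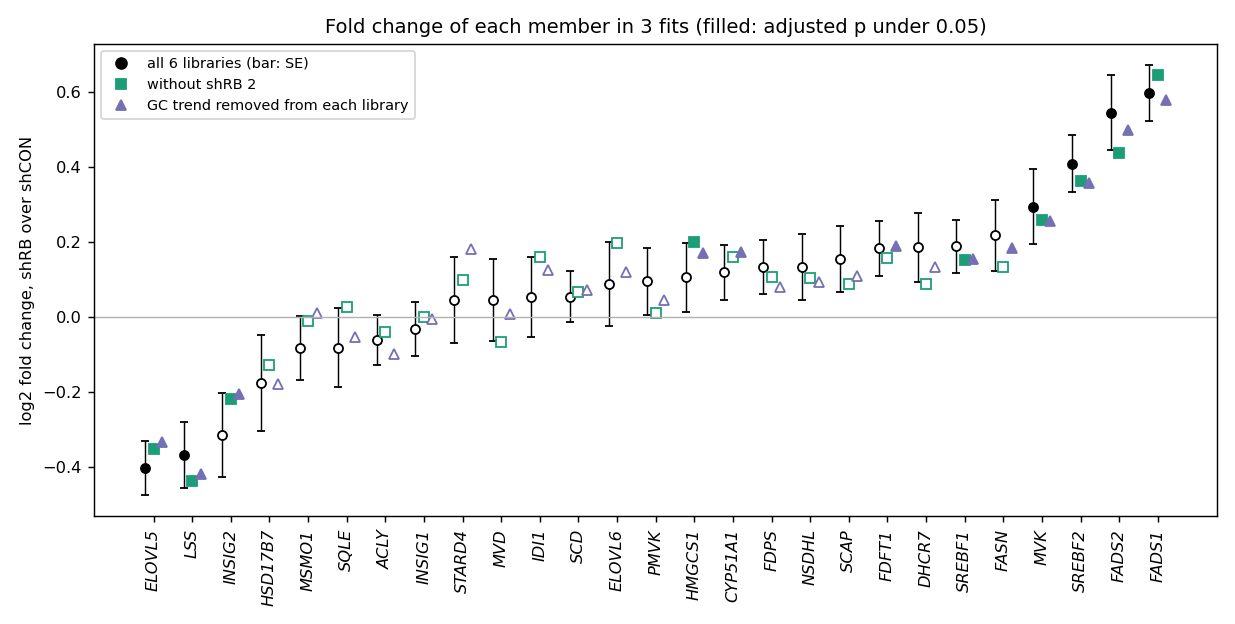
Log2 fold change, shRB over shCON (vertical axis), of each of the 27 genes, ordered by the fit on all libraries (black circles, bars SE), beside the fit without shRB 2 (green squares) and the fit with the GC trend of each library removed (purple triangles). Filled symbols have an adjusted p under 0.05: 6 genes with all libraries, 9 without shRB 2 and 12 with the trend removed.

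The promoter windows of RefSeq (GRCh38.p14, 250 bases before to 50 after a start) were searched on both strands, a gene being counted when any of its windows held the letters. Windows were found for 27 of the 31 genes. FASN, SQLE, FDFT1 and ACAT2 had none in the table. The NF-Y letters CCAAT occurred in 20 of 27 genes (74.1%), against 39.7% of 27305 genes in the table and 43.8% of the tested genes with a window. The GC box, GGGCGG, occurred in 25 (92.6%), against 48.3% of all and 77.9% of tested genes. The E-box CACGTG, which SREBPs can also bind, occurred in 5 (18.5%; 8.78% of all and 13.1% of tested genes). The sterol element core occurred in 1 (3.70%; 1.39% of all genes), and the E2F sites TTTGGCGC, TTTCCCGC, TTTCGCGC and TTTGCCGC, counted as 1 motif, in ACACA, INSIG2 and MVK (11.1%; 3.99% of all and 6.67% of tested genes). A match describes letters in a window, and the absence of one says nothing about binding outside it.

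Beside the synthesis genes, 4 further lists of the same lipid pathways were counted. Over all genes tested, edgeR called 12.8% higher and 12.5% lower. Of 10 tested genes that transport, cleave or degrade SREBP, SCAP and INSIG, 0 were higher and 0 lower by edgeR, DESeq2 or limma-voom (median log2 fold change 0.056). At an unadjusted p under 0.05, 0 were higher and 1 lower in each of these tools. The counts were not 0 in every fit: 2 were higher without shRB 2, 1 was lower without shRB 1, and 2 were higher and 1 lower with the GC trend removed. The smallest p-values in that list belonged to ERLIN2, a membrane protein of sterol-dependent degradation (17.4 ± 1.24 and 13.3 ± 2.39 CPM; adjusted p = 0.073), and SEC24D, a coat protein of the vesicles that leave the endoplasmic reticulum (adjusted p = 0.23). Of 10 other sterol and isoprenoid enzymes, ACAT1, a mitochondrial thiolase, fell from 339.7 ± 22.3 to 275.1 ± 22.5 CPM (log2 fold change −0.31, adjusted p = 0.014), a call lost without shCON 1 (adjusted p = 0.091) or shCON 3. With the GC trend removed 3 of the 10 were higher and 2 lower. With all libraries the other 9 did not pass, with TM7SF2, a sterol reductase, the nearest (421.5 ± 28.6 and 356.3 ± 36.3 CPM; adjusted p = 0.053).

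Of 15 other fatty acid synthesis genes tested, 4 were higher (26.7%, against 12.8% of all genes) and 1 lower (6.67%, against 12.5%), with a median log2 fold change of 0.052. Without shCON 1 only 2 were higher, and with the GC trend removed 6 were higher and 4 lower. SCD5, a second delta-9 desaturase, read 77.7, 81.2 and 83.6 CPM in shCON and 58.0, 54.3 and 56.6 CPM in shRB, with no overlap between groups (log2 fold change −0.52, adjusted p = 0.00036). MID1IP1, which promotes activity of acetyl-CoA carboxylase, rose from 171.9 ± 7.23 to 216.7 ± 9.22 CPM (0.34, adjusted p = 0.0041). The mitochondrial fatty acid synthesis enzymes MCAT and OXSM rose as well (0.34 and 0.47), as did the elongase ELOVL7 (0.44). Leaving out any 1 library kept the calls of SCD5, MID1IP1 and OXSM, while that of MCAT was lost without shCON 1 (adjusted p = 0.068) and that of ELOVL7 without any library but shRB 2 (adjusted p up to 0.14).

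Of 12 tested genes of sterol export, storage and trafficking, 3 were higher (25%, against 12.8% of all genes) and 1 lower (8.33%, against 12.5%). The counts were the same without shRB 2 and with the GC trend removed. The pair of export pumps moved in opposite directions. ABCA1, which loads cholesterol onto lipid-poor apolipoprotein, read 5.84, 4.72 and 5.88 CPM in shCON and 17.2, 16.0 and 19.9 CPM in shRB. The groups were far apart (log2 fold change 1.69 ± 0.15, SE; adjusted p = 3e-06). ABCG1, on chromosome 21, read 49.1, 54.0 and 55.4 CPM in shCON and 26.1, 27.8 and 31.3 CPM in shRB, also with no overlap (−0.89 ± 0.10, SE; adjusted p = 3.2e-05). SOAT1, which stores cholesterol as ester, and TMEM97, a sterol-responsive membrane protein, rose by 0.28 and 0.45 on the log2 scale. The SOAT1 call was lost without any library but shRB 2 (adjusted p up to 0.12), and the other 3 were kept without any 1 library. Over all 76 tested genes of the lipid lists, those of fat assembly and fatty acid oxidation included, 8 were higher (10.5%) and 9 lower (11.8%), both close to the shares over all genes.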

How the data were processed

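Read counts were deposited by the authors as whole numbers per Ensembl transcript ID and library, not normalized. The submitters' processing notes name STAR, HOMER, edgeR and hg19 but no version or role, and the labels' protocols name an Illumina TruSeq kit. The annotation, counting rule and strand setting were not given in the sources used here. GENCODE release 29 (GRCh38), another build, supplied only names, chromosomes, gene order, exon overlap, length and GC content. Of the IDs, 22182 matched it, and the 97 that did not held 0.377% of counts and stayed in the totals. Promoter windows and coordinates are from RefSeq.

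The shCON libraries held 20091488, 9958278 and 6115310 counts and the shRB libraries 10898768, 9780579 and 10249720. Between replicates, chi-square over genes was 2.17 to 10.9 times its degrees of freedom, more than counting error gives, so none was counted as a duplicate. Filtering used filterByExpr (minimum count 10, minimum total 15) and scaling used TMM. The test was edgeR 4.0.16 (R 4.3.3), quasi-likelihood, with group as the only term and Benjamini-Hochberg adjustment at 0.05. CPM is the count scaled to the TMM-adjusted total. The SE is the log2 fold change divided by the square root of F. The GC trend was a lowess curve per library (span 0.3) against GC content, used as an offset. It was fitted to each gene's log2 CPM (prior count 2) minus its mean over all libraries of both groups. Alternatives also included DESeq2 1.42.0, limma-voom (limma 3.58.1), a robust fit, 3 other scalings, 2 other filters, a block for the replicate number, the omission of each library and that of chromosome 21. Counts were also simulated for this comparison (11619 genes tested, 200 changed). In them the procedure recovered 28% of 1.25-fold changes, 70% of 1.5-fold, 94% of 2-fold and 100% of 4-fold ones, with 5 false calls among 151. The simulation changed fewer genes than were called in the data, and its counts held no GC trend shared within a library. Recovery in the data may therefore differ from these rates.

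The genes, their roles and the related lists were chosen with earlier results of these data known. Named in full were RB1, the genes with an adjusted p under 0.05, those called only when 1 library was left out, and the 5 regulators; the other synthesis genes were named at least once, and each related lipid list gave its 2 tested genes with the smallest p. Other genes of those lists named here, and the chromosome 21 genes named beside LSS, were chosen after their values were seen.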

Additional observations from a re-analysis of the deposited data

How the results depend on the processing

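Over the 27 genes and the 18 alternatives, 485 values were computed: 441 kept their direction and their side of the threshold, 27 passed it newly, 8 no longer passed (all MVK) and 9 changed sign. Genes higher in shRB numbered 4, with 3 to 6 when 1 library was left out, 9 with the replicate number as a block, 9 with the GC trend removed and 10 with both. Genes lower numbered 2, with 2 to 3 when 1 library was left out and 1 without chromosome 21, which removes LSS. Over all genes, leaving out 1 library gave 863 to 2074 higher and 912 to 1956 lower, the lowest without shCON 1 and the highest without shRB 2. Removing the GC trend gave 2314 higher and 2255 lower, and with the block as well 2475 and 2411. The block alone gave 2203 higher and 2294 lower. The related lipid genes gave 5 to 13 higher and 3 to 13 lower when 1 library was left out, against 8 and 9, with the fewest higher without shCON 1, the fewest lower without shCON 3 and the most higher without shRB 2. The changes of sign were in genes near 0: leaving out 1 library gave −0.032 to 0.16 for IDI1, −0.022 to 0.10 for STARD4, −0.066 to 0.13 for MVD, −0.18 to 0.027 for SQLE and −0.058 to 0.0016 for INSIG1, and MSMO1 was 0.012 with the GC trend removed and 0.017 with the block as well. Apart from the loss of LSS without chromosome 21, the causes were not tested. The labels do not say whether equal replicate numbers share a day or culture. Deviations of same-numbered libraries correlated at 0.24, 0.35 and −0.00032. While shCON 2 correlated best with shRB 2, shCON 1 correlated best with shRB 3 (0.27). Each library's GC trend enters these deviations, so the correlations cannot decide whether the libraries were paired. Calls gained under the block are therefore given as counts only. With 3 libraries a group, small changes could be missed (simulated recovery is given with the processing), and a gene that did not pass is not shown to be equal between groups.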

Other observations

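Of 18 tested genes that break fatty acids down, the opposite of the synthesis pathway, 5 were lower (27.8%, against 12.5% of all genes) and 1 higher (5.56%, against 12.8%), with a median log2 fold change of −0.049. The lower count was 1 without shCON 3, 2 without shCON 1, shRB 1 or shRB 3 and 3 without shCON 2, with 1 higher in each. It was 7, with 3 higher, without shRB 2 and 6, with 3 higher, when the GC trend was removed. ACADS, which opens the oxidation of short chains, read 105.5, 108.2 and 112.2 CPM in shCON and 81.0, 89.7 and 77.0 CPM in shRB, with no overlap between groups (log2 fold change −0.39, edgeR adjusted p = 0.003). HADHA and HADHB, the subunits of the mitochondrial trifunctional protein, fell from 418.0 ± 7.86 to 355.6 ± 20.97 CPM and from 237.1 ± 16.2 to 195.7 ± 13.2 CPM (SD, n = 3 each; edgeR adjusted p = 0.028 and 0.021). HADH, a dehydrogenase of shorter chains, rose instead, from 143.3, 143.7 and 140.8 CPM to 178.1, 178.1 and 178.6 CPM (0.32, edgeR adjusted p = 0.0037). DECR1 and ETFB were the other two lower. ACADS and HADH kept their call without any 1 library, whereas the other 4 calls were each lost without shCON 3 and at least 1 more library (adjusted p up to 0.14 for HADHA, 0.12 for HADHB, 0.16 for DECR1 and 0.11 for ETFB).

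Of 11 tested genes of triglyceride and phospholipid assembly, 0 were higher and 1 lower by edgeR, as by DESeq2 and limma-voom (median log2 fold change 0.0056). By edgeR the lower share was 9.09%, against 12.5% of all genes, while 12.8% of all genes were higher. At an unadjusted p under 0.05, edgeR had 2 higher and 1 lower, and with the GC trend removed 2 were higher and 1 lower. That one was AGPAT3, an acyltransferase on chromosome 21, which fell from 293.3 ± 20.8 to 237.8 ± 24.2 CPM (−0.30, edgeR adjusted p = 0.02), a call lost without shCON 2, shCON 3, shRB 1 or shRB 3 (adjusted p up to 0.10). CHKA, the choline kinase of phosphatidylcholine synthesis, had the next smallest p (27.3, 29.8 and 26.1 CPM in shCON; 31.6, 35.5 and 31.1 CPM in shRB; adjusted p = 0.11).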
